A study of Mus musculus with 4 samples.

Results

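The Pax genes encode a family of 9 transcription factors, Pax1 to Pax9, and all 9 were listed among the 24771 features of the expression table. The members were chosen by their gene symbols, and the family itself was selected on the contrast of the 2 sample groups, placodes and glands, so its levels are given below as a description without a test. Expression had been measured by RNA sequencing in 2 samples of PSC-derived SG placodes (salivary gland placodes made in culture from pluripotent stem cells) and 2 samples of E12.5 SMGs (submandibular glands of mouse embryos). The placodes came from a single mouse embryonic stem cell line, seeded as aggregates of 3000 cells per well and kept in medium with 2% Matrigel. They received BMP4 at 2 ng/ml on day 3, then bFGF (25 ng/ml) with RA (retinoic acid, 1 μM) on day 4 and, starting on day 6, FGF10 (200 ng/ml), and they were harvested on day 10. The glands were untreated, and their strain, the number of embryos per sample and the way they were dissected are not given in the sources used here. The sources do not say whether the 2 samples of a group were separate cultures or litters, so p-values measure the spread between these samples only. No sequencing batch is named, and a batch that follows the groups cannot be told apart from them.

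Pax proteins bind DNA through the paired domain, which the paired box of each gene encodes, and some members also carry a complete or partial homeodomain. The family falls into subfamilies of close relatives, Pax1 with Pax9, Pax2 with Pax5 and Pax8, Pax3 with Pax7, and Pax4 with Pax6. In the embryo, Pax2, Pax5 and Pax8 are known from the midbrain-hindbrain boundary, inhibitory interneurons, the ear and the kidney, Pax3 and Pax7 from the dorsal neural tube, neural crest and muscle progenitors, Pax6 from the eye, neural tube and pancreas, Pax4 from the endocrine pancreas, and Pax1 and Pax9 from the sclerotome, pharyngeal pouches and facial mesenchyme.

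A stretch of 51 bases of the paired box shows how close the 9 members are, and it is printed because near-identical genes could share reads. It was read from the GENCODE M21 transcripts (GRCm38), 5′ to 3′ on the coding strand, and capitals mark the 20 bases that all 9 genes have in common. The stretch lies in 1 coding exon of each gene, except that it spans exons 3 and 4 of Pax4 and exons 4 and 5 of Pax6, where the coordinates include the intron.
Pax1 (chr2:147365840-147365890, plus strand): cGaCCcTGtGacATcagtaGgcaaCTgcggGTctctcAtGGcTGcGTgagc
Pax9 (chr12:56696681-56696731, plus strand): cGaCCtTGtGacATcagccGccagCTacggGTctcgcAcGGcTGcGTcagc
Pax2 (chr19:44760979-44761029, plus strand): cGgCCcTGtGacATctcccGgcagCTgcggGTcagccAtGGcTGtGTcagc
Pax5 (chr4:44697536-44697586, minus strand): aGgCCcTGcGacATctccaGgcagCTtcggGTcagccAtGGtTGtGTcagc
Pax8 (chr2:24444580-24444630, minus strand): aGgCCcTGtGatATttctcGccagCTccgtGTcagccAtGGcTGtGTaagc
Pax3 (chr1:78195320-78195370, minus strand): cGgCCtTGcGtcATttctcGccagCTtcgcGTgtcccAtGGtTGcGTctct
Pax7 (chr4:139830207-139830257, minus strand): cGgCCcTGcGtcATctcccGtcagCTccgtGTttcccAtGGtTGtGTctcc
Pax4 (chr6:28446328-28446665, minus strand): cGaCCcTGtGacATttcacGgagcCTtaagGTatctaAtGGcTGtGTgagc
Pax6 (chr2:105683929-105684907, plus strand): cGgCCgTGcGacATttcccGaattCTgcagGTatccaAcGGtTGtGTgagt
In these 51 bases, members of the same subfamily had between 38 and 46 bases in common over 6 pairs, and members of different subfamilies between 30 and 40 over 30 pairs. Pax2 and Pax5 were the closest pair, with 46 bases the same. Translated over a longer window of the paired box, Pax2 and Pax5 were 97.7% identical, Pax1 and Pax9 96.1%, and Pax3 and Pax7 93.8%. Pax4 and Pax6 were the most distant pair within a subfamily, at 69.5%, below the 75.8% that Pax6 had with Pax2 and with Pax5.
The likeness lay in the protein rather than in long runs of bases. The longest run of identical bases between the transcripts of any pair was 37, shared by Pax3 and Pax6, which are of different subfamilies. Pax2, Pax4 and Pax7 shared no run of 50 bases with any other gene, and Pax5 shared most, with 7.02% of its 50-base runs found in the transcripts of 2 other genes. Exonic bases overlapped a gene on the opposite strand at Pax1 (183 bases), Pax8 (367) and Pax9 (189), and at Pax5 with 125 and 636 bases of separate genes. Whether the counting used strand is not given in the sources used here, so reads of such partners cannot be told apart from those of the Pax gene.

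The labelled tissues were checked against their markers. In the placodes, the epithelial keratins Krt5, Krt14 and Krt15 were listed at 0 in both samples, and 8 of 10 epithelial markers were lower than in the SMGs. The other 2, the keratins Krt8 and Krt18 of simple epithelia, did not pass the test, with Krt8 at 34.4 and 35.6 in the placodes against 36.1 and 28.3, and Krt18 at 20.8 and 24.5 against 20.0 and 15.4. All 7 neural progenitor markers and all 8 neuron markers were higher in the placodes, with the neural progenitor markers summing to an FPKM of 813 and 838 there against 66.1 and 62.0 in the SMGs. For comparison, 35.7% of all tested features were called higher and 40.4% lower in the placodes. The SMGs held the higher values of 8 of 8 mesenchyme markers and of 4 of 5 blood markers. FPKM corrects the fragments of a gene for its length and for the size of the library, so levels can be ordered between genes. The depth behind each value is unknown. Between 12636 and 12807 features per sample reached an FPKM of 1.

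The placodes carried 7 Pax genes at an FPKM of 1 or more in each sample (Pax1, Pax2, Pax3, Pax5, Pax6, Pax7 and Pax8), and the SMGs carried 1, Pax9. In order of mean FPKM, the placodes had Pax8, Pax6, Pax2, Pax5, Pax3, Pax7, Pax1, Pax9 and Pax4. Only Pax8 and Pax6 overlapped between neighbours in that order. In the SMGs, the order began with Pax9, Pax7 and Pax3, whose ranges did not overlap, and from Pax3 down to Pax5 each gene overlapped the next.
The family summed to 165 and 164 FPKM in the placodes against 9.66 and 8.65 in the glands. The make-up of that sum differed as well. Pax2, Pax5 and Pax8 held 54.1% of it in each placode sample, against 0.0814% and 0.668% in the glands, and Pax1 and Pax9 held 82.6% and 85.0% in the SMG samples, against 1.21% and 0.744%. Pax3 and Pax7 held shares closer to each other, 20.0% and 19.4% in the placodes against 16.3% and 14.3% in the glands. These are whole aggregates and glands, in which fewer cells of a type and less RNA per cell cannot be told apart. The neural progenitor and neuron markers moved in the same direction as 6 of the Pax genes, and their part in the Pax values was not tested.

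**Figure D1:**
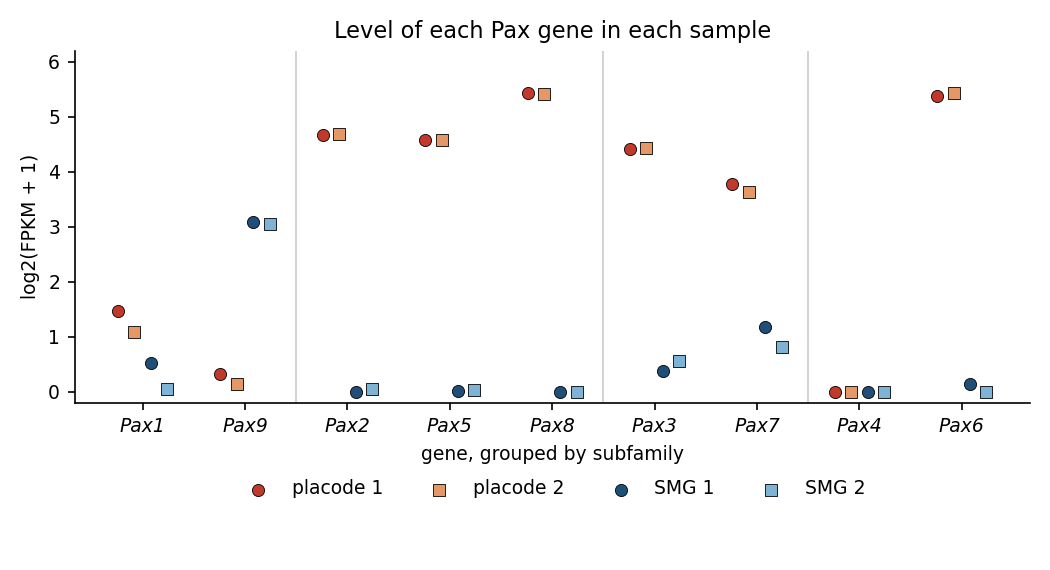
Level of each Pax gene as log2(FPKM + 1) in the 2 placode samples (red and orange) and the 2 SMG samples (dark and light blue), with subfamilies separated by grey lines. Pax2, Pax3, Pax5, Pax6, Pax7 and Pax8 sit high in both placode samples, Pax9 sits high in both SMG samples, and Pax4 is at 0 in all 4.

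**Figure D2:**
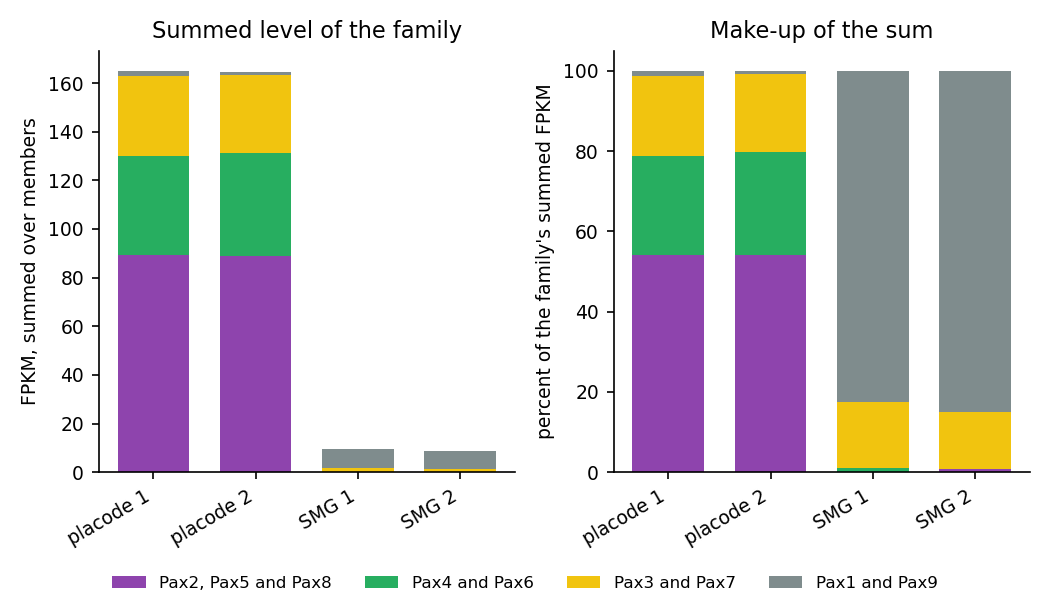
Summed FPKM of the 9 Pax genes in each sample (left) and the percent of that sum held by each subfamily (right). The placode sums of 165 and 164 are held mostly by Pax2, Pax5 and Pax8, and the SMG sums of 9.66 and 8.65 mostly by Pax9.

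Differences between the groups are given on the log2(FPKM + 1) scale, placodes minus SMGs, which understates the change of genes with low values. Of the 9 members, 7 averaged an FPKM of 1 or more across the 4 samples, the minimum for the fit across all features, and Pax1 and Pax4 did not. On this scale, 6 members lay at least 2-fold higher in the placodes and 1 at least 2-fold lower, where 14.2% and 15.3% of the 13193 tested features were. The same 7 members had groups that did not overlap, 6 with the placodes higher and 1 with the SMGs higher, as had 41.6% and 46.8% of the tested features. The family was selected on this contrast, so nothing is read from these counts.

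Among Pax2, Pax5 and Pax8, the subfamily with the highest levels in the placodes, Pax8 stood first. Pax8, known for thyroid, kidney and ear development, spans bases 24420560 to 24475599 of chromosome 2 (GRCm38). It had an FPKM of 42.1 and 41.4 in the placodes, and both gland samples listed it at 0, so no fold is given. Its log2 difference of 5.42 depends on the pseudocount. In the placodes, 1701 of the listed features had a higher mean FPKM.
Pax2, a regulator of kidney, ear and optic stalk development, had an FPKM of 24.4 and 24.8 in the placodes against 0 and 0.0360 in the glands. The placode mean was 24.6 ± 0.249 (SD, n = 2), and the log2 difference was 4.65. Pax2 thus stood below Pax8 in the placodes with no overlap of their values.
Pax5, which maintains the identity of B cells and acts with Pax2 at the midbrain-hindbrain boundary, had an FPKM of 22.7 and 22.8 in the placodes against 0.00786 and 0.0217 in the glands. The placode samples were nearly equal, at a mean of 22.8 ± 0.0108 (SD, n = 2), and the log2 difference was 4.55. The highest Pax5 value, 22.8, lay under the lowest Pax2 value, 24.4, in the placodes.

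Genes of the tissues in which this subfamily is known were unevenly present. Of 11 inhibitory interneuron genes, 8 were higher and 1 was lower in the placodes by limma, with Benjamini-Hochberg adjustment over all tested features, and the median log2 difference of the 10 tested was 3.78, against -0.05 over all tested features. Over all tested features, 35.7% were called higher and 40.4% lower at an adjusted p below 0.05. These shares stand beside every list count below. A gene near 0 in 1 group reached the minimum of mean FPKM only through the other group. Its direction was set by that filter, so the counts and medians of such genes are a description. Lhx1, a LIM homeobox gene of early interneurons, had the highest level of the list in the placodes. Its FPKM was 99.95 and 105 there against 0.0262 and 0.0136 in the glands (log2 difference 6.66). It was tested through its placode levels alone, so no p is given. Gad1 and Gad2, which make GABA, had an FPKM between 12.8 and 19.2 in the placodes and of at most 0.0355 in the SMGs. Gad1, Gad2 and the other list genes named beside the highest member of each group were picked after their values were seen. Tfap2b, an AP-2 factor, was the list member that was lower in the placodes, at 1.61 and 1.53 against 9.84 and 9.39 (log2 difference -2.05, SE 0.09, limma adjusted p = 5.09e-06).
Midbrain-hindbrain boundary genes were unevenly present. Of the 10, 6 reached an FPKM of 1 in both placode samples and 4 were tested, 3 of them higher and 1 lower in the placodes, with a median log2 difference of 2.51. Sp8, a zinc finger factor, had an FPKM of 20.2 and 21.6 in the placodes, while both gland samples listed it at 0. Fgf18 had the highest SMG level, 4.36 and 4.14 against 2.31 and 3.07 in the placodes (log2 difference -0.51, limma adjusted p = 0.0106), a call that was lost without placode replicate 1 and without either SMG replicate. Gbx2 and Lmx1b, homeobox factors of the region, stood at 5.85 and 7.06 and at 3.37 and 4.27 in the placodes, and the engrailed genes En1 and En2 at 1.74 and 1.48 and at 1.66 and 1.98, each under 0.1 in the glands. Fgf8, the signal of the boundary, was listed at 0 in both placode samples, Wnt1 at 0 and 0.140, and Otx2 at 0 and 0.0573.
Among 10 B cell genes, only Ebf1 had a mean FPKM of at least 1. This early B cell factor, also active outside the blood, had an FPKM of 8.42 and 9.43 in the placodes against 6.80 and 7.53 in the glands. Its log2 difference of 0.28 passed the test (limma adjusted p = 0.0319) and was lost when any 1 of the 4 samples was left out, with values between 0.21 and 0.35.
The kidney and thyroid list was mixed. Of its 13 genes, 2 were higher and 3 lower in the placodes, and the median log2 difference of the 6 tested was -0.99. Ret, the receptor of ureteric bud growth, was highest in the placodes at 13.1 and 12.7 against 7.31 and 7.15 (log2 difference 0.76, SE 0.07, limma adjusted p = 0.000117). Osr1, a zinc finger factor of the intermediate mesoderm, was highest in the SMGs at 107 and 117 against 3.14 and 2.64 (log2 difference -4.86, SE 0.08, limma adjusted p = 2.09e-07). The thyroid genes Tg and Nkx2-1 each had an FPKM under 0.1 in all 4 samples.

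Pax6, the regulator of eye, forebrain and ventral neural tube development, was the other Pax gene at the top of the placode order. It had an FPKM of 40.7 and 42.2 in the placodes against 0.10 and 0 in the glands. The placode mean was 41.4 ± 1.10 (SD, n = 2), which overlapped that of Pax8, and the log2 difference was 5.34. FPKM was given per gene, so the Pax6 forms with and without the alternative exon of the paired box were not separated.
Pax4, the other member of its subfamily and a factor of insulin-producing cells, was listed at 0 in all 4 samples. Pax4 and Pax6 thus differed most in level within a subfamily in the placodes.
Neural tube progenitor domain factors include some that share the ventricular zone with Pax6, Pax3 and Pax7. Of the 18, 11 were tested, and all 11 were higher in the placodes, with a median log2 difference of 2.15. Olig3, Neurog1, Neurog2, Gsx1, Prdm8, Prdm12, Dbx1 and Nkx6-1 were at most 0.312 in the glands, so they were tested through their placode levels alone. Dbx1, a homeobox gene of interneuron progenitors, led the list in the placodes. Its FPKM was 103 and 97.9 there against 0.126 and 0.312 in the glands (log2 difference 6.38). Nkx2-2, which marks the progenitors ventral to those with Pax6, was at 0.185 and 0.139 in the placodes. Other ventral factors of the list stood higher there, Nkx6-1 at 2.95 and 3.84, Nkx6-2 at 1.53 and 1.87, Olig2 at 1.13 and 1.96 and Foxa2 at 1.32 and 1.98. Each of them was at most 0.0296 in the glands.
Eye and lens genes were mostly near 0. Of the 10, 2 were tested, and both were higher in the placodes. Mab21l1, needed for lens formation, was highest in both groups, at 25.7 and 25.6 in the placodes against 11.2 and 11.9 in the glands (log2 difference 1.08, SE 0.06, limma adjusted p = 1.27e-05). Rax and Foxe3, factors of the eye field and the lens, were listed at 0 in all 4 samples.
Of 10 endocrine pancreas genes, 6 were higher in the placodes, which were all those tested, with a median log2 difference of 2.46. Neurod1 and Sst, at or near 0 in the glands, were tested through their placode levels alone. Sst, the hormone somatostatin that neurons also make, had an FPKM of 54.9 and 51.1 in the placodes, while both gland samples listed it at 0. Ins2 and Gcg, the genes of insulin and glucagon, were listed at 0 in all 4 samples, like Pax4.

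Pax3 and Pax7 had values above 0 in all 4 samples. Pax3, which acts in neural crest, dorsal neural tube and migrating muscle precursors, had an FPKM of 20.3 and 20.5 in the placodes against 0.306 and 0.473 in the glands. Its means were 20.4 ± 0.123 and 0.390 ± 0.118 (SD, n = 2 each), a ratio of 52.4 and a log2 difference of 3.95.
Pax7, known from muscle satellite cells and the dorsal neural tube, had an FPKM of 12.7 and 11.5 in the placodes against 1.27 and 0.763 in the glands. Its means were 12.1 ± 0.906 and 1.02 ± 0.357 (SD, n = 2 each), a ratio of 11.9 and a log2 difference of 2.71. Pax7 thus had the smallest difference of the 6 tested members that were higher in the placodes, and its SMG replicates differed by 0.36 on the log2 scale, the most of the 7 tested members in that group and above the median of 0.09 over all tested features.
Muscle genes went with the glands. Of 12 myogenic genes, 7 were lower in the placodes, and the median log2 difference of the 8 tested was -2.20. Myod1, Myog, Cdh15, Myh3, Myh8 and Tnnt3 were at most 0.169 in the placodes, so they were tested through their gland levels alone. Myog, the factor that starts muscle differentiation, had 0 in each placode sample and stood at an FPKM of 28.3 and 21.2 in the glands. Mylpf, a myosin light chain, had the highest placode level of the list, 10.3 and 10.4, against 20.2 and 10.3 in the SMGs. It did not pass the test (log2 difference -0.45, limma adjusted p = 0.168). Without SMG replicate 2 its log2 difference was -0.90 and passed. The myogenic genes summed to an FPKM of 97.2 in SMG replicate 1 and 63.2 in SMG replicate 2, the same order as the Pax7 values of 1.27 and 0.763 and the opposite order to the Pax3 values of 0.306 and 0.473. The part of muscle cells in those Pax values was not tested.
Neural crest and pigment cell genes also went with the glands, where Pax3 was low. Of 10, 7 were lower in the placodes, and the median log2 difference of the 8 tested was -2.14. Erbb3, at 0.671 and 0.550 in the placodes, was tested through its gland levels alone. Snai2, a factor of migrating crest and mesenchyme, was highest in the SMGs at 24.1 and 24.5 against 1.33 and 2.34 (log2 difference -3.18, SE 0.17, limma adjusted p = 1.00e-05). Foxd3, a factor of early crest, was highest in the placodes at 4.40 and 3.56 against 2.99 and 3.15 (log2 difference 0.29, limma adjusted p = 0.0640). Foxd3 passed under 5 of the alternatives, with log2 differences between 0.29 and 0.41. Dct, an enzyme of melanin synthesis, was at most 0.324 in any sample.

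Pax9 alone among the members was higher in the glands. Pax9, which is needed for tooth, palate and thymus formation, spans bases 56691767 to 56712822 of chromosome 12 (GRCm38). It had an FPKM of 7.54 and 7.32 in the glands against 0.249 and 0.0991 in the placode samples. The SMG mean of 7.43 ± 0.155 (SD, n = 2) was 42.6 times the placode mean of 0.174 ± 0.106 (SD, n = 2), and the log2 difference was -2.85.
Pax1, its closest relative and a sclerotome factor, went the other way at a low level. It had an FPKM of 1.75 and 1.12 in the placodes against 0.436 and 0.0381 in the glands. The groups did not overlap, but both pairs of replicates were far apart, with means of 1.44 ± 0.445 and 0.237 ± 0.281 (SD, n = 2 each) and a log2 difference of 0.99.
Genes that act with Pax1 and Pax9 in sclerotome and arch mesenchyme were mostly higher in the glands. Of 12, 7 were lower and 1 was higher in the placodes, and the median log2 difference of the 9 tested was -1.68. Tbx18 and Meox1 were at most 0.283 in the placodes, so they were tested through their gland levels alone, and Uncx through its placode levels alone. Prrx1, a homeobox gene of limb and face mesenchyme, had an FPKM of 115 and 122 in the glands against 4.05 and 3.94 in the placodes (log2 difference -4.58, SE 0.06, limma adjusted p = 1.09e-07). Uncx, a homeobox gene of both the sclerotome and neurons, was the exception, at 32.3 and 33.2 in the placodes and 0 in both gland samples. The mesenchyme markers Col1a1, Col1a2, Col3a1, Pdgfra, Pdgfrb, Twist2, Lum and Dcn were all higher in the SMGs with Pax9, and their part in the Pax9 value was not tested.

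**Figure D3:**
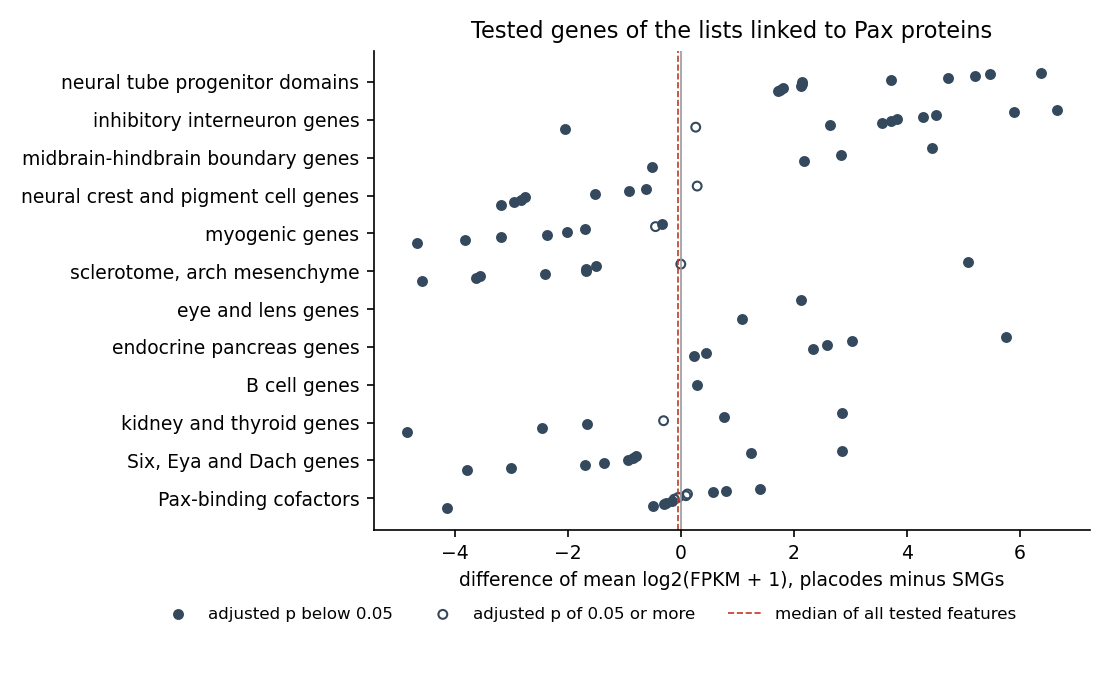
Difference of mean log2(FPKM + 1), placodes minus SMGs, of each tested gene in the 12 lists linked to Pax proteins, with filled points for an adjusted p below 0.05 and a dashed line at the median of all tested features (-0.05). Neural tube and interneuron genes lie mostly to the right, and myogenic, neural crest and arch mesenchyme genes mostly to the left.

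Partners that act with Pax proteins were present in both groups. Genes of the Eya and Dach families and their Six-type homeobox partners, which work with Pax genes in eye, muscle and kidney, were split, with 2 of 10 higher and 7 lower in the placodes and a median log2 difference of -0.93 over the 9 tested. Dach1, the highest in the placodes, had an FPKM of 28.8 and 28.9 against 3.09 and 3.15 (log2 difference 2.86, SE 0.07, limma adjusted p = 4.99e-07). Six5, the highest in the SMGs, had 27.9 and 24.8 against 7.71 and 7.10 (log2 difference -1.70, SE 0.08, limma adjusted p = 6.70e-06).
Corepressors and coactivators that bind Pax proteins were detected nearly throughout, 11 of 12 reaching an FPKM of 1 in each placode sample and 12 of 12 in each gland sample. Their median log2 difference was -0.08, with 3 higher, 5 lower and 4 that did not pass, where 35.7% and 40.4% of all tested features were higher and lower. The number lower was 3 under 2 other scalings of the samples, which took the number higher to 4, and was also 3 with eBayes without trend, and without placode replicate 1, SMG replicate 1 or SMG replicate 2. Tle3, a Groucho corepressor, had the highest level in both groups, at 66.9 and 62.4 in the placodes against 36.7 and 36.9 in the glands (log2 difference 0.80, SE 0.05, limma adjusted p = 2.76e-05). Tle2 differed most, at 0.816 and 1.21 in the placodes against 34.3 and 34.7 in the SMGs (log2 difference -4.15, SE 0.11, limma adjusted p = 6.99e-07). Paxip1 and Paxbp1, adaptors that link Pax proteins to histone methylation, had log2 differences of -0.49 and -0.17.
The 12 lists held 137 different genes, of which 86 were tested and the rest were under the minimum of mean FPKM. Of the 86, 39 were higher and 38 lower in the placodes, and 9 did not pass. The shares over all tested features were 35.7% and 40.4%. The lists ran in different directions, so nothing is read from the pooled counts.

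The difference of the Pax genes was set beside that of the genes next to them on the chromosome. The nearest listed protein-coding gene on each side of the 9 Pax genes gave 18 neighbours, of which 10 were tested. Of these, 3 were higher and 5 lower in the placodes, where 35.7% and 40.4% of all tested features were. Among the 10, 2 were at least 2-fold higher and 2 at least 2-fold lower, where 14.2% and 15.3% of all tested features were. The Pax genes were selected on this contrast, so their values are set beside those of the neighbours as a description. Foxa2, beside Pax1, had a log2 difference of 1.37, where Pax1 had 0.99. Rcn1 and Elp4, on either side of Pax6, had log2 differences of -0.26 and 0.33, where Pax6 had 5.34. Hif1an and Slf2, around Pax2, had 0.12 and -1.02, where Pax2 had 4.65.
Melk and Zcchc7, around Pax5, had -0.43 and -0.23, where Pax5 had 4.55. Cacna1b, a neuronal calcium channel gene beside Pax8, had an FPKM of 9.25 and 9.26 in the placodes against 1.89 and 1.75 in the glands (log2 difference 1.86, limma adjusted p = 7.06e-06). On the other side of Pax8, Psd4 had an FPKM of at most 0.582 in any sample.
Epha4 and Sgpp2, around Pax3, differed in opposite directions, by 1.02 and -1.84. Pax9 and Slc25a21 share exonic bases on opposite strands, and Slc25a21 had an FPKM between 0.137 and 0.194 in all 4 samples, where Pax9 reached 7.54 in the SMGs. Fscn3 beside Pax4 and Tas1r2 beside Pax7 were listed at 0 in all 4 samples.

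**Figure D4:**
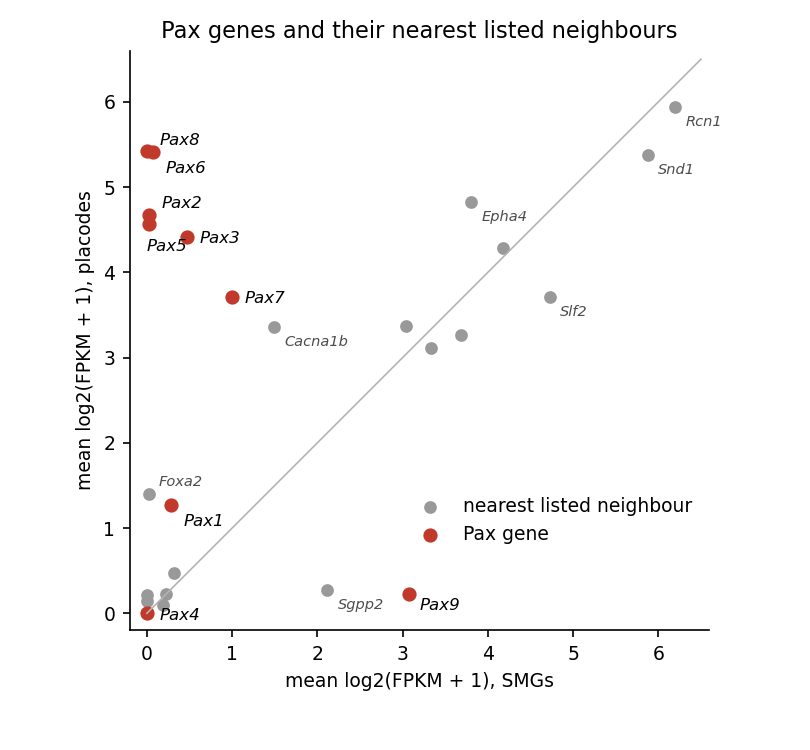
Mean log2(FPKM + 1) in the SMGs (horizontal) and the placodes (vertical) of the 9 Pax genes (red) and their 18 nearest listed neighbours (grey), with a line where both are equal. The neighbours Rcn1 and Snd1 lie near the line, Cacna1b, Epha4 and Foxa2 above it, and Slf2 and Sgpp2 below it. Pax2, Pax3, Pax5, Pax6, Pax7 and Pax8 lie far above the line and Pax9 far below.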

How the data were processed

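Total RNA of 2 samples of PSC-derived SG placodes and 2 samples of E12.5 SMGs was sequenced as paired-end reads. The authors aligned the reads with HISAT2 and deposited 1 FPKM value per gene and sample. GRCm38 and GRCh38 are both listed in the submitters' processing notes, and the program behind the FPKM values, its annotation and its strand setting are not given in the sources used here. Counts were not used, so depth is unknown and neither intervals nor detection floors are given.

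FPKM was transformed as log2(FPKM + 1). The 13193 features averaging an FPKM of 1 or more were fitted with limma 3.58.1 in R 4.3.3 (lmFit, eBayes with trend) on group alone, two-sided, adjusted by the Benjamini-Hochberg method over all of them and called at an adjusted p below 0.05. With 2 samples a group, the smallest p of an exact permutation test is 0.333. The procedure was tested on simulated data. Gene positions, transcripts and neighbours were taken from GENCODE M21, in which 22022 of 22036 Ensembl genes were found by identifier. Paired box windows of equal length were aligned in pairs, and the transcript used was the lowest-numbered consensus coding transcript of each gene that holds the printed stretch. Figures were drawn with Python 3.11.15.

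The family, its members and the 12 lists were chosen with earlier results of these data known. Named genes are all 9 Pax genes, the list member with the highest mean FPKM in each group and the nearest listed protein-coding neighbours. Also named are the 2 genes outside the family closest to each tested Pax gene by Euclidean distance over the 4 samples, and others picked after their values were seen. Some genes that this rule names are not reported here. Alternatives changed 1 choice at a time: the pseudocount, the scaling of the samples, the minimum of mean FPKM, the detection level, eBayes without trend, a block for the replicate number, and each sample left out in turn.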

Additional observations from a re-analysis of the deposited data

How the results depend on the processing

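The 10049 features called between the groups became between 8501 and 9087 when each of the 4 samples was left out in turn, with the lone sample assumed to vary like the pair of the other group. The 77 list genes called became between 70 and 75, and 51 at a minimum mean FPKM of 5, where fewer genes were tested. The 6 Pax members at least 2-fold higher in the placodes became between 6 and 7, and the 1 at least 2-fold lower remained 1 in number. The 7 members detected in the placodes numbered 7 with any sample left out, and 6 at a detection level of 5, which Pax1 did not reach. The 1 detected in the SMGs, Pax9, became 3 (Pax3, Pax7 and Pax9) at a detection level of 0.1 and between 1 and 2 with a sample left out, the second being Pax7 at 1.27 without SMG replicate 2. No Pax difference changed sign under any pseudocount, scaling or omission tried, but the size rested on the pseudocount. At a pseudocount of 0.1 or 0.01, the log2 difference of Pax1 was 2.47 or 3.27, of Pax2 7.73 or 10.16, of Pax3 5.41 or 5.71, of Pax5 7.64 or 9.90, of Pax6 8.20 or 10.29, of Pax7 3.49 or 3.60 and of Pax9 -4.83 or -5.47. That of Pax8, at 0 in both gland samples, moved most, from 5.42 to 8.71 or 12.03. Scaling moved the median of all tested features from -0.05 to at most 0.01. With the replicate number as a block, 10043 features were called. With no minimum of mean FPKM, 11894 features were called, 97 of the list genes among them. The replicate deviations of the groups had an r of -0.0348 over 13193 features, so no shift shared by samples of the same number was seen. Whether such samples were handled together is not given in the sources used here.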

Other observations

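For each Pax gene with a mean FPKM of at least 1 over the 4 samples, its 2 nearest tested genes were found, leaving out other Pax genes. Nearness was the smallest Euclidean distance in log2(FPKM + 1) over the 4 samples. Every gene called nearest or next below is thus the nearest or next outside the Pax family. Nearness here means a like level in each sample and says nothing of shared function or control. Slc32a1, the vesicular transporter of GABA and glycine, was the nearest to Pax5, at a distance of 0.0639. It stood at an FPKM of 22.4 and 22.0 in the placodes, where Pax5 had 22.7 and 22.8, and at 0.0208 and 0 in the glands. Sall3, a zinc finger factor, was next, at a distance of 0.122.

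Neurog1, a proneural factor, and Hoxa6, a Hox gene of the trunk, were the nearest genes outside the family to both Pax6 and Pax8. Neurog1 had an FPKM of 41.5 and 45.7 in the placodes, while both gland samples listed it at 0. Hoxa6 had 38.0 and 42.5 in the placodes against 0.0360 and 0 in the glands.

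Lamp5, a membrane protein of interneurons, was the nearest to Pax2, at 25.5 and 23.5 in the placodes and at 0 in both gland samples, and H2-Ab1, an antigen-presenting molecule, was next at 26.6 and 25.3. Plch1 was the nearest to Pax3, at a distance of 0.134, and Cdh13 and Ppm1h were the nearest to Pax7, at 0.233 and 0.248. Cavin2, a caveolar protein, was the nearest to Pax9, with 7.24 and 7.28 in the SMG samples and 0.195 in each placode sample, and Tekt2 was next at a distance of 0.152.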
